A study of Mus musculus with 16 samples.

Results

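The potassium channel genes of the mouse were taken as the protein-coding genes whose symbol starts with Kcn in the GENCODE annotation of the mm9 genome build (NCBIM37). The annotation held 96 such genes among 22380 protein-coding genes. They carried 94 symbols, because Kcnb2 and Kcnh8 each had 2 gene records. The choice used names only and no measured value. A gene was said to carry a peak when any part of a peak lay within 5 kb of the start of one of its transcripts, and the genes were divided by the letter that follows Kcn.

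The series has 16 samples, and the ChIP-seq peak lists of 14 were analysed here, while the 2 inputs were not. Total Jarid2 and Jarid2 dimethylated at the lysine K116 (Jarid2-K116me2) were each immunoprecipitated from 1 sample of E14, a line of mouse embryonic stem cells (ESC) grown in serum with LIF, the cytokine that keeps them undifferentiated. The histone mark H3K27me3 was immunoprecipitated from 3 lines on the same Jarid2 -/- background: the Jarid2 -/- ESC themselves (KO), these cells rescued with a bacterial artificial chromosome (BAC) carrying Jarid2 (WT), and these cells rescued with a BAC carrying Jarid2 K116A, in which this lysine is replaced by alanine (K116A). Each line was taken as ESC and as embryoid bodies (EB) after 8 days without LIF, with 2 replicates in each of the 6 groups. All 3 lines thus share the deletion of the endogenous Jarid2 gene, and the number of clones behind each rescued line was not given in the sources used here. The E14 line of the Jarid2 experiment was not a control of the H3K27me3 experiment.

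Potassium channels let potassium ions leave or enter a cell along their gradient, and thereby set the resting potential of the membrane and end the action potentials of neurons and muscle. Most of their genes are used in differentiated tissues such as brain, heart, kidney and inner ear. Jarid2 is a cofactor of Polycomb Repressive Complex 2 (PRC2), which methylates lysine 27 of histone H3 at the promoters of silent developmental genes, mostly at stretches of DNA rich in the dinucleotide CG. PRC2 also methylates Jarid2 itself at K116.

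The windows upstream of 5 Kcn transcript starts are given as examples of CG content, and they do not show its full range. The sequences are the 300 bases directly upstream of a transcript start on mm9, written 5′ to 3′ on the strand of the gene, with each CG in capitals. The first 3 belong to genes with some of the widest Jarid2 peaks over a start, namely Kcnk10 (chr12:99816151-99816450, minus strand, 13 CG), Kcna1 (chr6:126595820-126596119, minus strand, 12 CG) and Kcnh3 (chr15:99054992-99055291, plus strand, 39 CG). The last 2 belong to gene records with no peak of either antibody, Kcna10 (chr3:106985674-106985973, plus strand, 1 CG) and the second record of Kcnb2 (chr1:15702084-15702383, plus strand, 1 CG). This record of Kcnb2 starts just beyond the end of the other one (15701710) on the same strand, so its window may not be a promoter. It was counted as a gene in the totals. No exon of the gene lies in these windows.
Kcnk10: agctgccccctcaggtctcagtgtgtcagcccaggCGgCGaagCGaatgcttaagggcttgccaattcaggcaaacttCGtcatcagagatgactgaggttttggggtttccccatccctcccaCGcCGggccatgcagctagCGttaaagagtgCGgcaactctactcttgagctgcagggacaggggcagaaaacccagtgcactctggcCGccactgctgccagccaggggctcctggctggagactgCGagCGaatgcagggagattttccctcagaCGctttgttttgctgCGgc
Kcna1: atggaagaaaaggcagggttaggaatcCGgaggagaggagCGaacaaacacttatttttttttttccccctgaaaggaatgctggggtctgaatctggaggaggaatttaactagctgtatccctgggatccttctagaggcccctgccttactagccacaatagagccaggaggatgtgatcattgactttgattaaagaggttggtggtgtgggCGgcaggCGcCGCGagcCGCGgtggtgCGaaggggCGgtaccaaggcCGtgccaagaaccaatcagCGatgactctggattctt
Kcnh3: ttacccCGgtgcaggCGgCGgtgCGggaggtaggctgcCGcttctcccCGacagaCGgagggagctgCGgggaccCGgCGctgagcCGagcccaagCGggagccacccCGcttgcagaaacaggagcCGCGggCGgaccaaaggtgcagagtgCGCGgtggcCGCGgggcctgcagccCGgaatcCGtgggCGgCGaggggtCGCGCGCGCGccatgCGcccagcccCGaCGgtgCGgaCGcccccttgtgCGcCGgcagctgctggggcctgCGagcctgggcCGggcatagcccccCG
Kcna10: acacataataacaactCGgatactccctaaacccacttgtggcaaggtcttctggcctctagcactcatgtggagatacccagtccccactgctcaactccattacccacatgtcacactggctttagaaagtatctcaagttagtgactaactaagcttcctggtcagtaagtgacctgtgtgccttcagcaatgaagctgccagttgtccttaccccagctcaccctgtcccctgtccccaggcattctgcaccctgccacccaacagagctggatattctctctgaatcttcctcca
Kcnb2: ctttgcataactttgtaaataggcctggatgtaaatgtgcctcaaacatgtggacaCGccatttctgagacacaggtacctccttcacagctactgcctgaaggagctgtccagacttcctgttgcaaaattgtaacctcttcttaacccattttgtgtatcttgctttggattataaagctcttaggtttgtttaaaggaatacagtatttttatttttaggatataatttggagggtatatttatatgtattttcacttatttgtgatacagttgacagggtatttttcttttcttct
The motif CG reads the same on both strands, and its copies cannot overlap. At least 1 CG was found in such a window of 99.0% of the Kcn genes and of 93.9% of all protein-coding genes. The median number was 12 for the Kcn genes and 9 for all protein-coding genes. The number was 48 at Kcnh2. It did not divide the genes by peak as the 5 examples do: Kcnab2, without a Jarid2 peak, had 22, and Kcnf1, with a Jarid2 peak, had 1.

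A Jarid2 peak lay within 5 kb of a start of 60 of the 96 Kcn genes (62.5%). Over all protein-coding genes the same rule found a Jarid2 peak at 3709 of 22380 (16.6%). A Jarid2-K116me2 peak lay at 57 Kcn genes (59.4%), compared with 3277 protein-coding genes (14.6%). All of these 57 also carried a Jarid2 peak, whereas peaks of both antibodies were found at 14.5% of the protein-coding genes. Thus 3 Kcn genes had Jarid2 only, none had Jarid2-K116me2 only, and 36 had neither. Each antibody was used on 1 sample, so these counts have no replicate error and no test between antibodies was made. As a wider reference, the sodium, calcium and cyclic nucleotide-gated pacemaker channel genes (symbols starting with Scn, Cacna or Hcn) carried a Jarid2 peak in 18 of 36 cases (50.0%) and a Jarid2-K116me2 peak in 15 cases (41.7%). The median number of distinct transcript starts, which affects the chance of lying near a peak, was 2 for the Kcn genes and 2 for all protein-coding genes.

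The classes of channel differed in how many of their genes carried a peak. Jarid2 peaks lay at 32 of the 42 genes for voltage-gated pore-forming subunits, which open when the membrane is depolarized. They lay at 10 of the 14 genes for tandem-pore channels (Kcnk), which carry leak currents, and at 9 of the 15 genes for inward rectifiers (Kcnj), which hold the resting potential. The lower counts were found for the pore-forming subunits activated by calcium or sodium, with 3 of 8 genes, and for the auxiliary and regulatory proteins, with 6 of 17 genes. The class activated by calcium or sodium was formed by symbol (Kcnma, Kcnn, Kcnt and Kcnu), so Kcnu1 was counted in it by name only. Every one of these shares lay above the 16.6% of all protein-coding genes. The gene numbers per class are small, and the differences between classes were not tested.

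**Figure D1:**
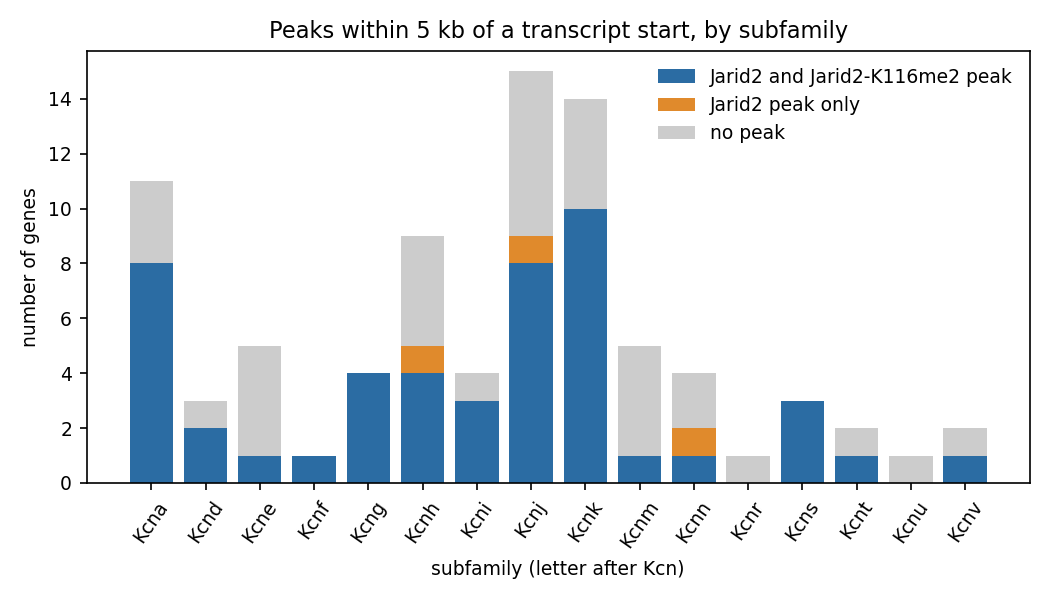
Number of Kcn genes in each subfamily, named by the letter after Kcn, with a peak of both antibodies, of Jarid2 only or of neither within 5 kb of a transcript start (1 sample per antibody). Kcnb, Kcnc and Kcnq are not drawn. All 4 Kcng and 3 Kcns genes carried a Jarid2 peak, while 1 of 5 Kcne and 1 of 5 Kcnm genes did.

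Among the voltage-gated letters drawn, every gene carried a Jarid2 peak in Kcng (4 of 4), Kcns (3 of 3) and Kcnf (1 of 1). Kcnf, Kcng and Kcns encode subunits that form no channel alone and modify the Kcnb channels. Neither record of Kcnb2, which encodes such a channel, had a peak. Jarid2 peaks were found at 7 of the 8 Kcna genes proper, the Shaker family, with Kcna10 as the exception, and at 2 of 3 Kcnd genes. In Kcnh, the ether-à-go-go family, 5 of 9 records had a peak, and Kcnh4, Kcnh6 and both records of Kcnh8 had none. Kcnv1 had a peak and Kcnv2 had none.

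The genes of auxiliary subunits were split as well. A Jarid2 peak was found at 3 of the 4 Kcnip genes (Kcnip1, Kcnip3 and Kcnip4), whose calcium-binding products modulate the Kcnd channels. In Kcne, which encodes small single-pass subunits, the peak lay at Kcne3 and not at Kcne1, Kcne1l, Kcne2 or Kcne4. Kcnab3 was the 1 gene of 3 for the beta subunits of Shaker channels with a peak. For the large-conductance calcium-activated channel, the pore gene Kcnma1 and the auxiliary genes Kcnmb1, Kcnmb2 and Kcnmb3 had none, and Kcnmb4, the auxiliary gene used mostly in neurons, had 2 peaks of each antibody. Kcnrg and Kcnu1, the only genes of their letters, had no peak.

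The peaks sat on the starts of the Kcn genes. For 55 of the 60 genes a Jarid2 peak covered a start, and for 50 of the 57 a Jarid2-K116me2 peak did. Covered starts were not counted over all protein-coding genes. The midpoint of the strongest Jarid2 peak lay at a median of 248 bp downstream of the nearest start of the gene (quartiles 29.5 and 505 bp), and it lay within 1 kb for 51 genes (85.0%). Over all protein-coding genes with a Jarid2 peak the median was 272 bp and 75.8% lay within 1 kb. By the annotation, this midpoint fell in an exon of the Kcn gene in 35 cases, in an intron in 18 and outside the gene in 7. The farthest peaks inside the limit were those of Kcnn1, whose nearest edge was 4830 bp from its start, and Kcnj9, at 2015 bp. The nearest peaks outside the limit were 6752 bp from Kcnn4 and 7055 bp from Kcnj14.

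In 59 of the 60 cases the nearest coding start to a peak was that of the Kcn gene itself. The exception was Kcnn1, which encodes a small-conductance calcium-activated channel. Its peak was nearer to the start of A230052G05Rik, and only 171 bases of it reached into the 5 kb around Kcnn1. Other coding starts also lay within 5 kb of the peak at Kcna3 (AI504432) and Kcnab3 (Cntrob and Trappc1). The count was 59 when genes whose peak was nearer to another gene were left out.

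The score of a peak in these lists is minus 10 times the log10 of the MACS p-value, and it is given without scaling for depth. Its commonest value, 3100, works as a ceiling: 11 of the 69 Jarid2 peaks at Kcn genes (15.9%) and 15 of the 64 Jarid2-K116me2 peaks (23.4%) had this score or a higher one. At all protein-coding genes the shares were 17.3% and 23.2%. The median score of the Jarid2 peaks was 651.2 at Kcn genes and 605.1 at all protein-coding genes, and the median width was 2057 and 2014 bp. For Jarid2-K116me2 the medians were 898.2 and 803.8 for the score and 1716 and 1760 bp for the width. The peaks of Kcn genes thus had scores and widths close to those of the other genes with peaks, without a test.

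The genes were next ranked by the bases of Jarid2 peak near a start. Kcnk10, a tandem-pore leak channel, came first with 5969 bases within 5 kb of a start, and the 5096 bases of Jarid2-K116me2 peak were split over 2 peaks. Kcna1, a delayed rectifier of axons, had 5040 and 4414 bases. These genes carried a score of 3100 for both antibodies, so their scores cannot be ranked. Kcnk9 and Kcnk12, also of the tandem-pore class, had 5038 and 4994 bases of Jarid2 peak at the same score. Kcnh3 had 4363 bases with scores of 2549 for Jarid2 and 2726 for Jarid2-K116me2. Kcnd3, which encodes a channel of the transient A-type current, had 4234 bases, and Kcns1 had 4157 bases in 3 peaks. Kcnq5 and Kcnc2 followed with 3749 and 3705 bases. Kcnc2 belongs to the channels that let fast-spiking neurons repolarize quickly, and Kcnc1 and Kcnc4 of the same subfamily had 3653 and 3689 bases.

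The scores of the inward rectifiers stayed under the ceiling. The highest was 1731 for Jarid2 at Kcnj4, with 2125 for Jarid2-K116me2, followed by 1467 and 2207 at Kcnj12 and 1290 and 1058 at Kcnj2. None of the 9 Kcnj genes reached 3100 for Jarid2, which 4 of the 10 Kcnk genes and 7 of the 32 voltage-gated genes did. At all protein-coding genes 17.3% of the Jarid2 peaks did. With so few genes per class, these differences were not tested. The 4 genes for the channels gated by G proteins, Kcnj3, Kcnj5, Kcnj6 and Kcnj9, all carried both antibodies. Their Jarid2 scores were 1187, 370, 309 and 647, in this order.

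Among the remaining voltage-gated genes, the Shaker genes Kcna2 and Kcna3 scored 3011 and 2431 for Jarid2 and 3100 each for Jarid2-K116me2. Kcnd2, the second gene of the A-type current, scored 1109 and 2005. Kcns3 scored 2340 and 3100, whereas its sister Kcns2 scored 471 and 388. These pairs show that genes of 1 letter could lie far apart in score. Kcnh5 and Kcnh1 of the ether-à-go-go family scored 1166 and 1010 for Jarid2, and the silent subunits Kcng1 and Kcnf1 scored 1041 and 992. Kcnq1, which encodes a channel of the heart and the inner ear, scored 683 for Jarid2 and 666 for Jarid2-K116me2, and Kcnv1, a further silent subunit, scored 585 and 695.

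The median Jarid2 score was 483 at the auxiliary genes with a peak and 651 at those activated by calcium or sodium, compared with 1075 at the voltage-gated and 1882 at the tandem-pore genes. Of the auxiliary genes, Kcnip1 had the highest Jarid2 score (965) and Kcnip3 the lowest (309), with 1189 and 191 for Jarid2-K116me2. Kcnmb4 scored 802 and 967, and Kcne3 scored 436 and 414. None of the 6 auxiliary genes with a peak reached the ceiling for Jarid2, against 17.3% of the Jarid2 peaks at all protein-coding genes. Kcnn2, which encodes a small-conductance calcium-activated channel, scored 651 for Jarid2 and 867 for Jarid2-K116me2. Kcnt1, a channel activated by sodium, scored 190 and 223, and its sister Kcnt2 had no peak.

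**Figure D2:**
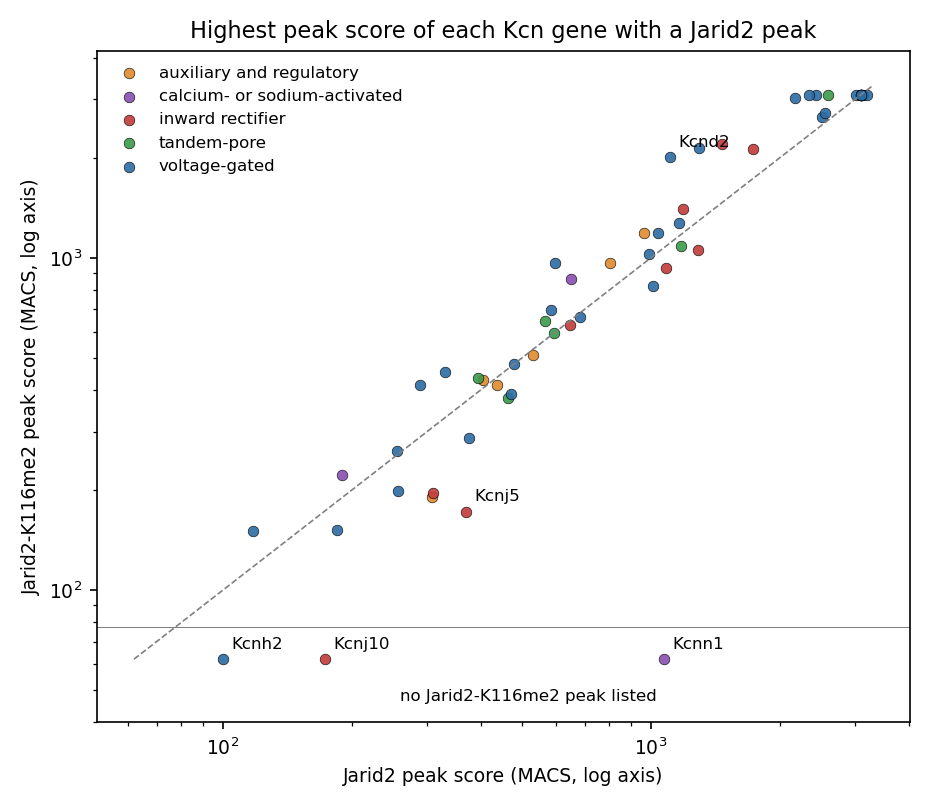
Highest Jarid2 score (horizontal, log axis) and highest Jarid2-K116me2 score (vertical, log axis) among the peaks of each of the 60 Kcn genes with a Jarid2 peak, coloured by class of channel, with a dashed line of equal scores. The points lie along the line up to the ceiling of 3100, and the 3 genes without a Jarid2-K116me2 peak, Kcnh2, Kcnj10 and Kcnn1, are drawn below the grey line.

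Jarid2-K116me2 accompanied Jarid2 at 95.0% of the Kcn genes with a Jarid2 peak and at 87.3% of all such protein-coding genes. The genes with Jarid2 alone were Kcnh2, Kcnj10 and Kcnn1. Kcnh2, which encodes a channel that repolarizes the heart, had a narrow Jarid2 peak with a score of 100.1, the lowest of the 60 genes, 439 bp from a start. Kcnj10, the main inward rectifier of glial cells, had a score of 173. Kcnn1 had a score of 1075, but its peak lay far from the start as described above. For 42 genes both scores were under the ceiling. The Jarid2-K116me2 score was the higher one in 26 of them (61.9%), compared with 57.2% of 2333 protein-coding genes. The median ratio of the Jarid2-K116me2 to the Jarid2 score was 1.059 (range 0.466 to 1.808), and it was 1.061 over all protein-coding genes. The lowest ratio was that of Kcnj5, with scores of 172 and 370, and the highest that of Kcnd2, with 2005 and 1109. The Jarid2 peaks covered more bases than the Jarid2-K116me2 peaks in 54 of the 57 genes, with medians of 2622 and 1863 bases. This was not counted over all protein-coding genes. There the Jarid2 peaks were also the wider ones, with median widths of 2014 and 1760 bp, so the count shows no trait particular to Kcn genes. The scores of the 2 samples are not scaled to each other, so a ratio of 1 has no meaning of its own.

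The CG content of the start differed between the Kcn genes with and without a peak. It was measured as the CpG ratio, the number of CG observed over the number expected from the C and G content, in 1 kb centred on the start with the highest ratio. The median was 0.717 (quartiles 0.544 and 0.804) for the 60 genes with a Jarid2 peak and 0.277 (quartiles 0.226 and 0.424) for the 36 without. For all protein-coding genes the medians were 0.732 with and 0.532 without a peak. Of the 46 Kcn genes with a ratio of at least 0.6, 42 carried a Jarid2 peak (91.3%), whereas 24.7% of all 11241 protein-coding genes with such a ratio did. Below 0.6 the shares were 18 of 50 Kcn genes (36.0%) and 8.33% of 11139 protein-coding genes. The Kcn genes were not richer in CG as a whole, with 47.9% at or above 0.6 against 50.2% of all protein-coding genes. Taken at the 5′ end of each gene in place of the best start, the medians were 0.640 and 0.270. The sequences shown above lie at the 5′ end, which at Kcnk10 was not the best start (ratios of 0.437 and 0.863).

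**Figure D3:**
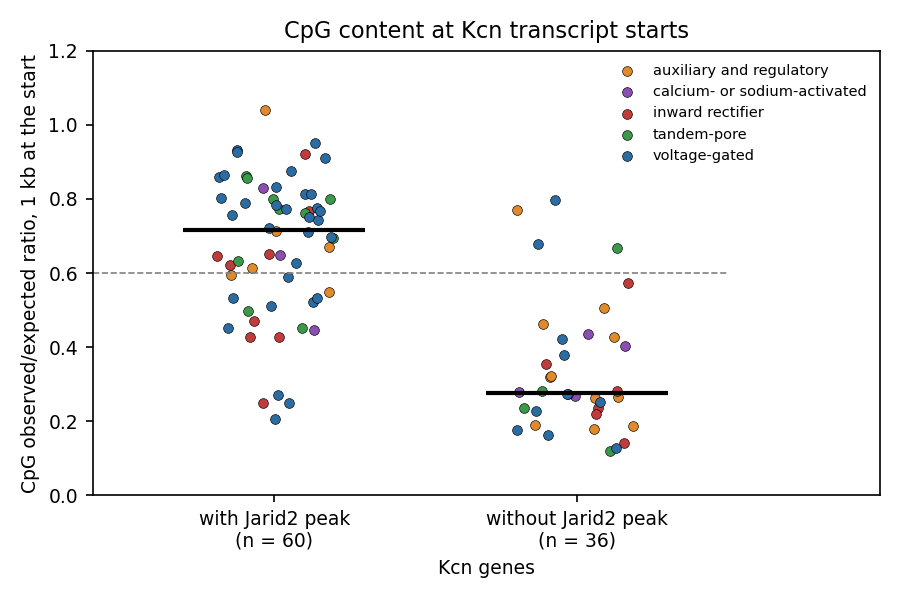
CpG observed/expected ratio in 1 kb at the transcript start for each Kcn gene with (n = 60) or without (n = 36) a Jarid2 peak, coloured by class of channel, with the median as a black bar and the ratio of 0.6 as a dashed line. Most genes with a peak lie above the line and all but 4 of those without a peak lie below it.

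Only 4 Kcn genes with a ratio of at least 0.6 lacked a Jarid2 peak, among them Kcnab2 (0.770), Kcnh4 (0.679) and Kcnk5 (0.668). Each of the 4 was more than 60 kb from the nearest peak, the closest being Kcnh4 at 67149 bp. In contrast, 4 genes with a peak had a ratio under 0.3. Kcnc2 (0.272) was among those with the widest peaks, while Kcna5 (0.250), Kcnj9 (0.248) and Kcng4 (0.207) had Jarid2 scores of 257, 647 and 117.6.

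H3K27me3 was next examined at the same genes in the 3 Jarid2 -/- derived lines. The number of H3K27me3 peaks differed widely between libraries, from 1478 to 14125, and replicate 1 of the WT ESC, with 1478, stood apart from the others. The number of peaks in a library moved with the number of Kcn genes marked, and the part it had in the differences between groups was not tested. In ESC, a peak lay within 5 kb of a start of 7 Kcn genes in WT replicate 1 and of 58 in replicate 2, against 3.4% and 19.5% of all protein-coding genes. The KO replicates had 38 and 63 Kcn genes with a peak, against 10.5% and 25.2%. The K116A replicates had 42 and 59, against 12.6% and 20.8%. Replicate 1 was lower than replicate 2 in every line. Leaving WT replicate 1 aside, between 39.6% and 65.6% of the Kcn genes were marked in ESC.

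In EB, the WT replicates had 51 and 52 marked Kcn genes, against 17.1% and 18.4% of all protein-coding genes. The KO replicates had 56 and 60, against 23.5% and 29.7%. The K116A replicates had 51 and 58, against 18% and 23.2%. EB are a mixture of cell types, and a mark in a part of the cells cannot be told apart from a weaker mark in all of them. The KO counts lay above both WT counts, for the Kcn genes as for all protein-coding genes, and the K116A replicates overlapped with WT. A mark in both replicates was found at 50, 56 and 51 Kcn genes in WT, KO and K116A EB. In ESC these numbers were 7, 38 and 42, the same as in replicate 1 alone, and replicate 2 alone gave 58, 63 and 59. Marks in both replicates were not counted over all protein-coding genes, so these numbers describe the Kcn genes without a reference.

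**Figure D4:**
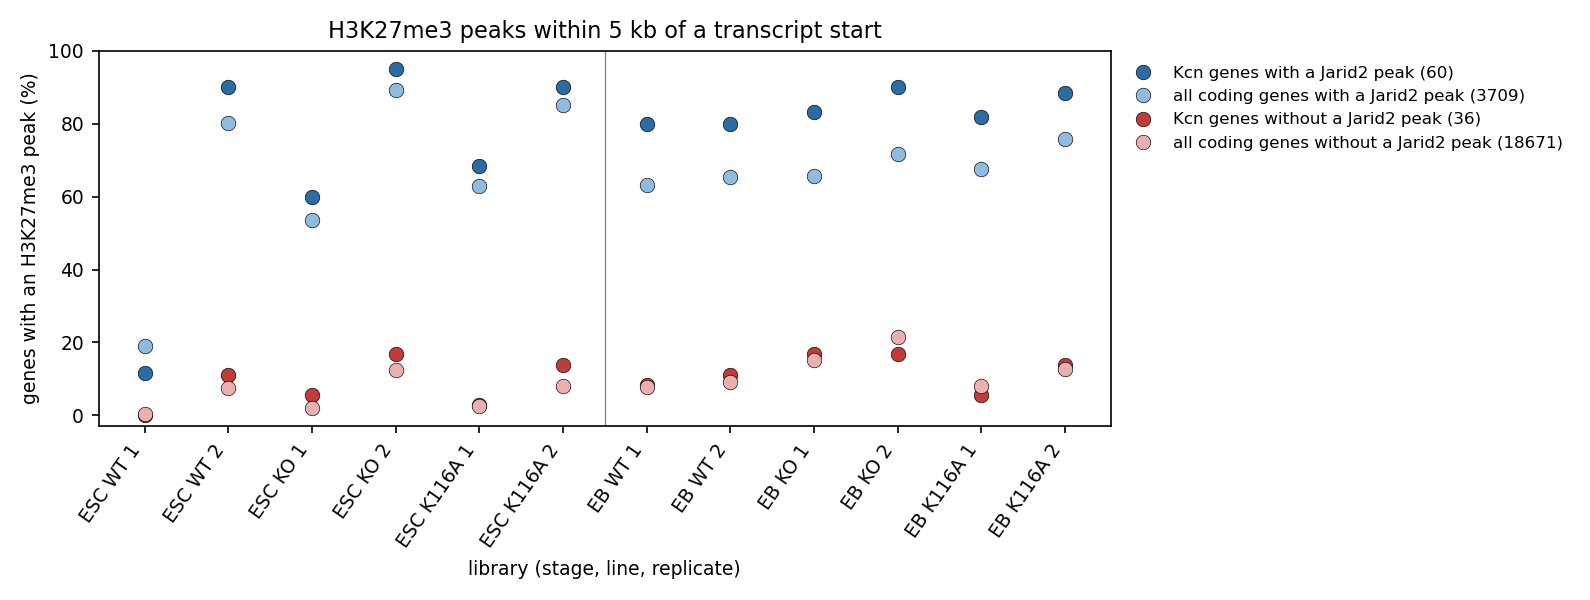
Share of genes (%) with an H3K27me3 peak within 5 kb of a transcript start in each of the 12 libraries, for Kcn genes and for all protein-coding genes, each divided by whether the gene carried a Jarid2 peak in E14 ESC. In 11 libraries the Kcn genes with a Jarid2 peak lie highest, between 60.0% and 95.0%, and in WT ESC replicate 1 they lie at 11.7%.

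The mark was found mostly at the genes with a Jarid2 peak in E14 ESC. Of the 60 Kcn genes with a Jarid2 peak, 90.0% were marked in replicate 2 of the WT ESC, compared with 11.1% of the 36 without one. For all protein-coding genes these shares were 80.2% and 7.48%. In the EB libraries the marked share was 80.0% to 90.0% of the Kcn genes with a Jarid2 peak, while it was 63.3% to 75.8% of all protein-coding genes with one. Over all 12 libraries, 65 Kcn genes were marked at least once and 31 never. Of the 31, 28 had no Jarid2 peak, and the other 3 were Kcna5, Kcng4 and Kcnk1. By class, replicate 2 of all 3 ESC lines was marked at 32 of the 42 voltage-gated genes, 9 of the 14 tandem-pore genes, 6 of the 15 inward rectifiers, 2 of the 8 genes activated by calcium or sodium and 6 of the 17 auxiliary genes. The voltage-gated and tandem-pore classes thus had the highest shares for the mark as for Jarid2. The genes marked in all libraries except WT ESC replicate 1 numbered 29, and all of them carried a Jarid2 peak. The genes marked in all 12 libraries numbered 5: Kcna1, Kcng3, Kcnj4, Kcnk12 and Kcnk9. These counts over several libraries have no reference over all protein-coding genes and show no trait particular to Kcn genes.

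**Figure D5:**
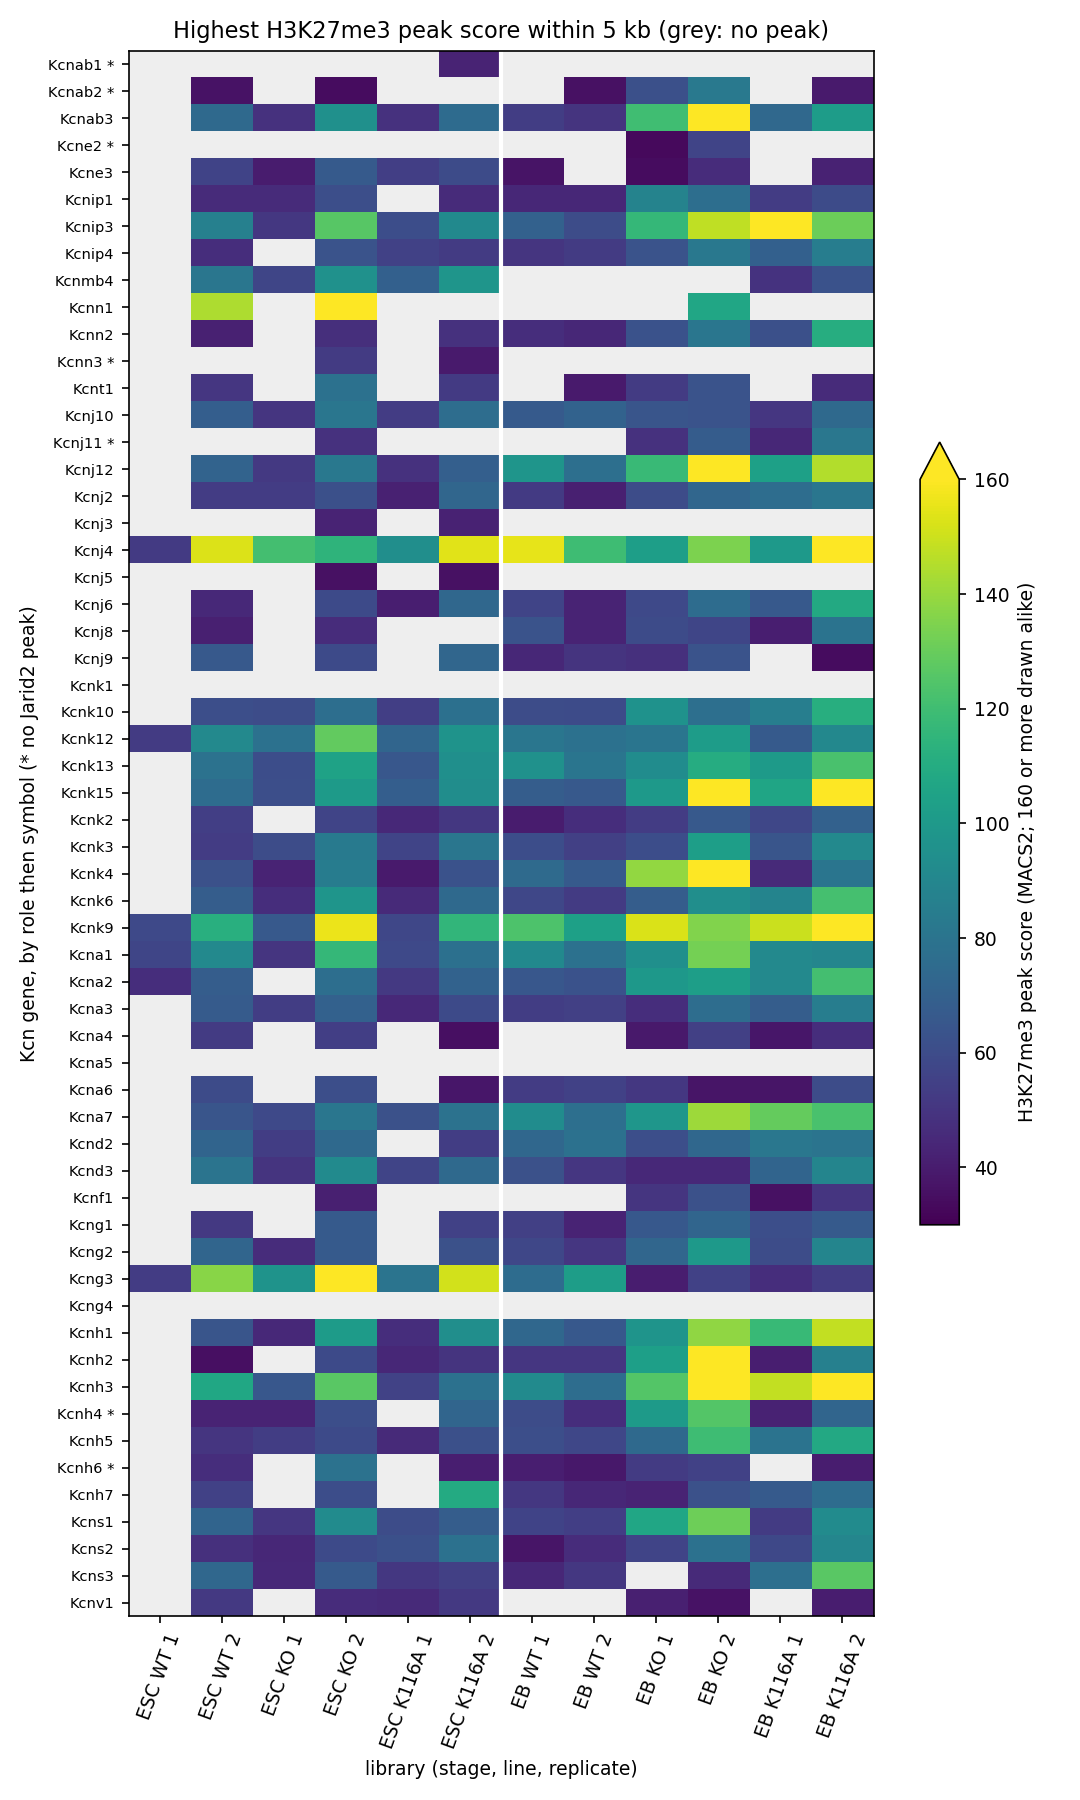
Highest H3K27me3 peak score within 5 kb of a transcript start of each Kcn gene with a Jarid2 peak or an H3K27me3 peak, other than Kcnb, Kcnc and Kcnq genes, in the 12 libraries, with grey where no peak is listed and an asterisk for genes without a Jarid2 peak. WT ESC replicate 1 holds 6 coloured cells, and Kcne2 is coloured in the 2 KO EB libraries only.

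The H3K27me3 score is the value that MACS2 wrote for each broad peak, on a scale that the lists do not state. At Kcnk9, the score was 57.4 to 156 over the 6 ESC libraries and 104 to 181 over the 6 EB libraries. At Kcna1, it was 49.9 to 117 in ESC and 78.5 to 133 in EB. The ranges of the 2 stages overlapped at both genes. Kcnj4 scored 52.3 to 154 in ESC and 100.5 to 173 in EB.

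Kcng3 encodes a silent subunit. Its Jarid2 score was 3192, above the ceiling value of 3100, where scores cannot be ranked. Its H3K27me3 scores in ESC were 53.2 and 137 in WT, 96.6 and 210 in KO, and 79.8 and 151 in K116A. In EB they were 75.7 and 103 in WT, 40.2 and 55.3 in KO, and 46.8 and 53.0 in K116A. The scores of EB thus lay below those of ESC without overlap in KO and in K116A and between them in WT. The difference between EB and ESC averaged over the 3 lines was -0.89 on the log2(score + 1) scale (SE 0.36, adjusted p = 0.128 by limma, as described below). The change from ESC to EB differed between KO and WT by -1.62 (SE 0.87, adjusted p = 0.717).

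No H3K27me3 peak was found in either WT ESC replicate at 6 genes with a Jarid2 peak in E14 ESC. Kcna5, Kcng4 and Kcnk1 were unmarked in every library. Kcnk1 encodes a weak inward-rectifying leak channel and had a Jarid2 score of 594 and a CpG ratio of 0.632. Kcnj3 and Kcnj5, whose products join to form the channel by which acetylcholine slows the heart, were each marked in 2 ESC libraries, replicate 2 of KO and replicate 2 of K116A, and in no EB library. Kcnf1 was marked in KO ESC replicate 2 and in both replicates of KO EB and of K116A EB. No Kcn gene without a Jarid2 peak was marked in both WT ESC replicates, and 4 were marked in replicate 2, among them Kcnab2, Kcnh4 and Kcnh6. Kcnab2 and Kcnh4 are among the genes with a CpG ratio of at least 0.6 named above. Over all libraries 8 genes without a Jarid2 peak were marked at least once, among them also Kcnab1, Kcne2, Kcnj11 and Kcnn3.

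Most Kcn genes marked in ESC were still marked in EB. In replicate 2 of WT, 52 of the 58 genes marked in ESC were marked in EB (89.7%) and none was gained. The 6 that were listed in ESC only included Kcna4, Kcne3, Kcnmb4, Kcnn1 and Kcnv1. Over all protein-coding genes marked in this ESC library 75.0% were kept, and over those with a Jarid2 peak 78.8%. In replicate 2 of KO, 59 of 63 Kcn genes were kept (93.7%), compared with 75.1% of all protein-coding genes and 77.7% of those with Jarid2. In replicate 2 of K116A, 54 of 59 were kept (91.5%), compared with 79.3% and 84.1%. The share of Kcn genes kept was thus the higher one in each of these 3 lines, without a test, since the genes of 1 library are not replicates. In replicate 1, the shares kept were 100.0% in WT, 92.1% in KO and 92.9% in K116A, where WT rests on 7 genes. Over all protein-coding genes they were 98.4%, 87.2% and 84.0%.

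Differences between the groups were tested with limma on log2(score + 1), with 0 for a gene without a peak, over the 7074 protein-coding genes that had a peak in at least 2 of the 12 libraries, at an adjusted p of at most 0.05 (Benjamini-Hochberg). Of the 96 Kcn genes, 64 passed this filter. A gene marked in 1 group only passes through that group, so the counts below do not describe all Kcn genes. Between EB and ESC, averaged over the 3 lines, 1 Kcn gene was called, Kcne2, against 17.4% of all genes tested (1150 higher and 83 lower in EB). When the libraries were brought to the same distribution by quantile normalization, the median difference of all genes moved from 1.36 to -0.02 and the split became 757 higher and 1194 lower, with 5 Kcn genes higher and 9 lower. Quantile normalization gives all libraries the same distribution, which removes a shift shared by all genes. It does not hold the median difference at 0, which was -0.579 for KO minus WT in ESC under the same method. Quantile normalization cannot decide the direction of a change shared by most genes. By the percent of the window covered, without this normalization, 1444 genes were higher and 31 lower in EB, with 7 Kcn genes higher and 0 lower. The part of library scaling in the change between stages was not tested. The differences also moved when 1 library was left out. With all libraries the median was 1.447 for the Kcn genes and 1.363 for all genes tested. Without WT ESC replicate 2 these were 2.362 and 1.875, and without WT ESC replicate 1 they were 0.428 and 0.696. Kcne2 was listed in the 2 KO EB libraries only, so without one of them it no longer passed the filter and was not tested in any contrast.

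In ESC, no Kcn gene was called between KO and WT, where 0.0848% of all genes were, or between K116A and WT, where 0.155% were. At an unadjusted p under 0.05, the number of Kcn genes was 0 in both, against 27 and 72 of the 7074 genes tested. Without WT replicate 2, which leaves WT replicate 1 as the only WT library, the median differences rose from 2.764 and 2.702 to 4.707 and 5.649 at the Kcn genes. Over all genes tested they rose from 0.223 and 0.003 to 2.772 and 2.625. Without WT replicate 1 they were -0.131 and -0.187 at the Kcn genes and 0 and -0.061 over all genes. In EB, 1 Kcn gene was called between KO and WT, again Kcne2, against 10.1% of all genes. None was called between K116A and WT, against 2.93%, and 3 had an unadjusted p under 0.05, against 670 of the 7074 genes tested. The median difference between KO and WT was 0.512 at the Kcn genes and 0.606 over all genes. Without KO EB replicate 1 these were 0.717 and 0.795, and without KO EB replicate 2 they were 0.305 and 0.247. Kcne2 was not tested in either case. For K116A the medians were 0.476 and 0.317 with all libraries. Without K116A EB replicate 1 they were 0.722 and 0.616, and without K116A EB replicate 2 they were 0.252 and 0. Over all genes, 696 were higher and 21 lower in KO EB than in WT EB, and 165 and 42 in K116A EB. After quantile normalization these splits were 104 and 171 for KO, with 0 and 4 Kcn genes, and 171 and 96 for K116A, with 1 and 1.

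The third pair of contrasts compared the stages between lines. The change from ESC to EB differed between KO and WT at 1 Kcn gene, Kcne2, against 9.43% of all genes. It differed between K116A and WT at none, against 3%, and 2 had an unadjusted p under 0.05, against 408 of the 7074 genes tested. For KO and WT the median of this difference was -1.922 at the Kcn genes and 0.098 over all genes. Without WT ESC replicate 2 these were -3.426 and -1.72, and without WT ESC replicate 1 they were 0.856 and 1.232. For K116A and WT the medians were -1.936 and 0 with all libraries. Without WT ESC replicate 2 they were -4.904 and -2.256, and without WT ESC replicate 1 they were 0.794 and 0.928. Kcne2 was not tested without KO EB replicate 1 or without replicate 2.

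Kcne2 encodes an auxiliary subunit that is used in the stomach, the choroid plexus and the heart. It had no Jarid2 peak and a CpG ratio of 0.267. An H3K27me3 peak was listed at scores of 33.4 and 56.5 in the 2 KO EB libraries and in none of the other 10. Kcne2 passed the filter through these 2 libraries alone, so the filter that admitted it used the same values as the tests between KO EB and the other groups. The difference between KO and WT in EB, 5.48 on the log2(score + 1) scale, is therefore given as a description, and the calls of Kcne2 above support nothing beyond the 2 listed peaks. Because the value is set against libraries without a listed peak, it depends on the pseudocount and is no fold change of the mark. No Kcn gene was called higher in KO EB than in WT EB after quantile normalization. The KO EB libraries had more peaks than the other EB libraries of the same replicate number (10164 and 14125), and the part of this in the call was not tested.

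A further 5 genes, chosen after their values were seen, were listed in both replicates of a mutant line in EB and in no WT EB library but were not called. Because they were chosen for this pattern, their differences and adjusted p-values are given as a description and support no difference between the lines. Kcnf1 and Kcnj11 were listed in no WT library, so they passed the filter through KO and K116A libraries only. Kcnf1 scored 49.9 and 62.1 in KO EB and 35.9 and 50.1 in K116A EB, and its differences from WT were 5.82 (SE 1.48, adjusted p = 0.0540 by limma) and 5.44 (SE 1.48, adjusted p = 0.173). Kcnj11, the pore of the ATP-sensitive channel of pancreatic beta cells, had scores of 48.5 and 67.9 in KO EB and 44.4 and 81.6 in K116A EB. Its differences were 5.87 (SE 1.55, adjusted p = 0.0569) and 5.94 (SE 1.55, adjusted p = 0.164). Kcnmb4 was listed in 5 of the 6 ESC libraries, all but WT replicate 1. In EB it was listed in K116A only, with scores of 48.8 and 62.7, and its difference from WT was 5.82 (SE 1.74, adjusted p = 0.222). Kcna4, a Shaker channel, scored 39.1 and 54.4 in KO EB and 37.7 and 46.8 in K116A EB. Its differences were 5.56 (SE 2.61, adjusted p = 0.336) and 5.43 (SE 2.61, adjusted p = 0.608). Kcnv1 scored 41.4 and 36.6 in KO EB, with a difference of 5.32 (SE 2.59, adjusted p = 0.362), and was listed in 1 of the 2 K116A EB libraries.

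The markers of ESC were read in the same way. Of 6 genes that are active in pluripotent cells (Pou5f1, Nanog, Sox2, Zfp42, Klf4 and Esrrb), only Esrrb had a Jarid2 peak, a Jarid2-K116me2 peak or an H3K27me3 peak in ESC, where it had all 3. In EB, an H3K27me3 peak lay at 2 to 4 of the 6. Peak lists of H3K27me3 cannot check the Jarid2 -/- label itself, since they hold no measure of Jarid2.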

How the data were processed

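ChIP-seq was performed for Jarid2, Jarid2-K116me2 and H3K27me3, and 14 peak lists were analysed here. The authors mapped single reads to mm9 with Bowtie2 (2.1.0), removed PCR duplicates with PicardTools and called peaks per sample against an input. They used MACS (1.4.2) for Jarid2 and Jarid2-K116me2 and MACS2 (2.0.10, broad peaks) for H3K27me3. The deposited lists give for each peak its position and a score, which depends on depth. The study gives read numbers for its libraries, which were not used here, and the scores were not scaled to them. The submitters' processing notes also name HOMER (3.17).

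Peaks were compared with all transcript starts of 22380 protein-coding genes of GENCODE on NCBIM37, and 0 peaks ended beyond a chromosome of this reference. H3K27me3 was planned as fold enrichment, which the lists used here do not hold, so the highest score within 5 kb was tested with limma (3.58.1, R 4.3.3) on log2(score + 1), with 6 groups of 2 replicates, 1 shared spread and Benjamini-Hochberg adjustment over 7074 genes. The study describes the replicates of H3K27me3 as independent biological samples. The overlap functions (Python 3.11.15, pandas 2.3.3) and the limma fit were checked on simulated data.

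The members and the lists of genes were chosen with earlier results of these data known. Named genes were up to 3 per letter by Jarid2 score, the 10 with the most bases of Jarid2 peak, those with 1 antibody only, those nearest to the 5 kb limit, those called by limma, and those where Jarid2 and H3K27me3 disagreed in WT ESC. Alternatives covered distance, peak choice, pseudocount, filter, normalization, replicate block and left-out libraries. The alternative that needs a q-value per peak was not run. Some Kcn genes are counted in the totals but are not reported here by name.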

Additional observations from a re-analysis of the deposited data

Results flagged for a closer look

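The change from ESC to EB in the H3K27me3 score at Kcne2 differed between KO and WT by 5.48 on the log2(score + 1) scale (SE 0.47, limma, with 2 replicates in each of the 4 groups), and it passed the threshold of the test of this difference. A peak was listed in both KO EB libraries, at scores of 33.4 and 56.5, and in no WT library or KO ESC library. The gene passed the filter on listed peaks through these 2 libraries alone, and the values of the other groups have no spread, so the test adds no support to the difference. Without KO EB replicate 1 or without replicate 2 the gene did not pass the filter and was not tested.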

How the results depend on the processing

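All 35 alternatives for the counts of Jarid2 and Jarid2-K116me2 peaks, 3 of them added after the data were seen, stayed within 1.5 times the reported counts. With 1 kb in place of 5 kb, the WT ESC genes marked in both replicates were 4. Leaving out a replicate gave 7 to 58 marked genes in WT ESC, 38 to 63 in KO ESC, 42 to 59 in K116A ESC, 51 to 52 in WT EB, 56 to 60 in KO EB and 51 to 58 in K116A EB. In WT and KO ESC, the value without replicate 1 exceeded 1.5 times the reported one.

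For the Kcn genes called between EB and ESC, the count was 14 after quantile normalization, 7 by the percent of the window covered, 3 at 1 kb, and 0 to 27 with 1 library left out. The count was 1 at 1 kb for KO against WT in ESC and for K116A against WT in ESC, and 0 to 25 with 1 library left out for both. For KO against WT in EB it was 4 after quantile normalization, 0 at 1 kb and 0 to 3 with 1 library left out. For K116A against WT in EB it was 2 after quantile normalization and 0 to 2 with 1 library left out. The change from ESC to EB in KO against WT gave 0 by the percent covered and 0 after quantile normalization, and 0 to 26 with 1 library left out, while at 1 kb the 1 gene called was lower, not higher. In K116A against WT it gave 1 at 1 kb, lower, and 0 to 24 with 1 library left out. Lower calls in these contrasts were not limited to 1 kb. When WT ESC replicate 2 was left out, most or all of the Kcn genes called in both were lower. WT ESC then rests on 1 library. The median differences at the Kcn genes were then -3.426 for KO and -4.904 for K116A. They were 0.856 and 0.794 when WT ESC replicate 1 was left out instead. Without KO EB replicate 1 or without replicate 2, Kcne2 no longer passed the filter and was not tested. A group left with 1 library was assumed to vary like the other groups.

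The replicate numbers were not taken to pair the samples: same-numbered samples of 2 groups deviated together with correlations of -0.093 to 0.39, and only 4 of 15 exceeded 0.1. Such a correlation over genes does not register a shift shared by all genes. Replicate 2 listed more peaks than replicate 1 in every group, for example 8579 against 1478 in WT ESC and 8446 against 6852 in WT EB. The study describes its replicates 2 as of higher quality. With a replicate block, 3 Kcn genes were called between EB and ESC (Kcne2 and Kcnj8 higher, and Kcng3 lower at an adjusted p of 0.0408 by limma, against 0.128 without the block), and the counts of the other contrasts did not change. The cause of these shifts was not tested. Because each antibody against Jarid2 was used on 1 sample and scores were not scaled to read numbers, a weak or absent peak cannot be told apart from limited depth.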
